A study of Mus musculus with 11 samples.

Results

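The 42 genes described here include the enzymes of glycolysis and the Pfkfb enzymes, which make and remove an activator of phosphofructokinase. The others are the transporters and kinases that set the fate of lactate and pyruvate, and the genes that sense or answer low oxygen. All 42 were chosen by name: 16 glycolytic enzymes, 4 members of the Pfkfb family, 4 lactate and pyruvate gates, 8 regulators of the hypoxia response and 10 other hypoxia targets. Of these, 37 could be read from a probe set that carries 1 gene symbol, out of 22180 genes read in all. The other 5 were not analysed here: Aldoa and Ankrd37 sat only on probe sets with several symbols, and Gpi1, Eno1 and Pfkfb1 were matched to no probe set under those symbols. The arrays compared S3 proximal tubules, the last straight segment of the proximal tubule, from 129/SvEv mice of 2 genotypes: THP +/+ (wild type) and THP -/-, mice that lack Tamm-Horsfall protein, the urinary protein encoded by Umod. There were 6 wild-type arrays (WT1 to WT6) and 5 knockout arrays (KO1 to KO5). Batch 1 of the labels held WT1 to WT5 and KO1 to KO3, and batch 2 held WT6, KO4 and KO5. Total RNA was extracted with the Arcturus PicoPure kit and labelled with the Affymetrix WT Pico protocol. No treatment was named, and the age and sex of the mice, the way the tubules were isolated and the construction of the null allele were not given in the sources used here. Nor do the labels say that each array is a separate mouse, so the p-values below measure the spread between arrays, which may in part be technical.

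Glycolysis splits glucose into pyruvate, which lactate dehydrogenase turns into lactate when it is not oxidised in the mitochondrion. Cells short of oxygen raise this pathway through the hypoxia-inducible factors: the prolyl hydroxylases Egln1 to Egln3 use oxygen to mark the alpha subunits Hif1a and Epas1, the Vhl ubiquitin ligase then removes them, and alpha subunits that escape pair with Arnt and bind a short ACGTG-type core in target genes. The proximal tubule lives mainly on fatty acids and lactate and makes glucose rather than burning it, while glycolytic capacity is greater in the distal segments of the nephron. The S3 segment lies in the outer medulla, where oxygen tension is low, beside the thick ascending limbs that normally secrete Tamm-Horsfall protein.

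All values are log2 array signals, and a difference is knockout minus wild type, fitted over all arrays with batch in the model and given with its standard error (SE). Array medians lay between 3.85 and 4.01, and pairs of arrays correlated at 0.901 to 0.955. Umod ran from 5.27 to 6.74 in wild type and from 3.68 to 5.27 in the knockout, where KO5 equalled the lowest wild-type arrays. Its fitted log2 difference was -1.52 ± 0.24 (SE; limma adjusted p = 0.281). Of 9 measured S3 markers, 7 lay above the array median in every array, and 8 of 9 had a fitted difference above 0, as had 1 of 10 S1 and S2, 6 of 11 collecting duct, 4 of 7 thin limb, 9 of 10 endothelial, 4 of 9 fibroblast, 6 of 10 leukocyte and 1 of 1 measured red cell markers. Other segments were present too, and 3 arrays stood apart. KO4 held a summed linear signal of 2680 for 11 thick ascending limb markers other than Umod, against 583 to 978 in wild type and at most 1240 in the other knockout arrays, and 886 for collecting duct markers, against 271 to 449 in wild type and at most 324 in the others. WT5 and KO2 had the lowest means of the S1 and S2 markers in their groups, 6.84 and 6.61, against 7.44 to 7.67 and 7.23 to 7.67 in the rest. Of the 10 markers, 4 were lowest of their group in both arrays (Slc22a6, Slc34a1, Slc4a4 and Gatm). Of the 9 measured S3 markers, 1 was (Cyp2e1). The mean of the S3 markers was 8.21 in WT5 and 8.46 in KO2, against group medians of 8.07 and 8.46. Cubn read 9.18 in WT5 and 9.38 in KO2, above the group medians of 9.12 and 9.32. In bulk tubules fewer cells of a type and less RNA per cell cannot be told apart.

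Across the 37 measured genes no difference between the genotypes passed the test. None had an adjusted p under 0.05 (limma, Benjamini-Hochberg over all 41345 probe sets), against 0% of all probe sets, and the members' adjusted p-values ran from 0.758 to 0.993. At an unadjusted p under 0.05 there were 2 of 37 members, Pfkp and Higd1a, both higher in the knockout. That is 5.41% of the members against 5.64% of all genes, of which 3.64% were higher in the knockout. No member separated the groups without overlap, against 0.627% of all genes. The fitted difference was above 0 for 24 members and below 0 for 13, a share of 64.9% higher against 53.4% of all genes. The median over the members was 0.08 and over all genes 0.015. Of the 37, 21 had the same sign within both batches, which all genes did at 54.3%. The members ran from Ndrg1 at -0.43 to Higd1a at 0.75.

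**Figure D1:**
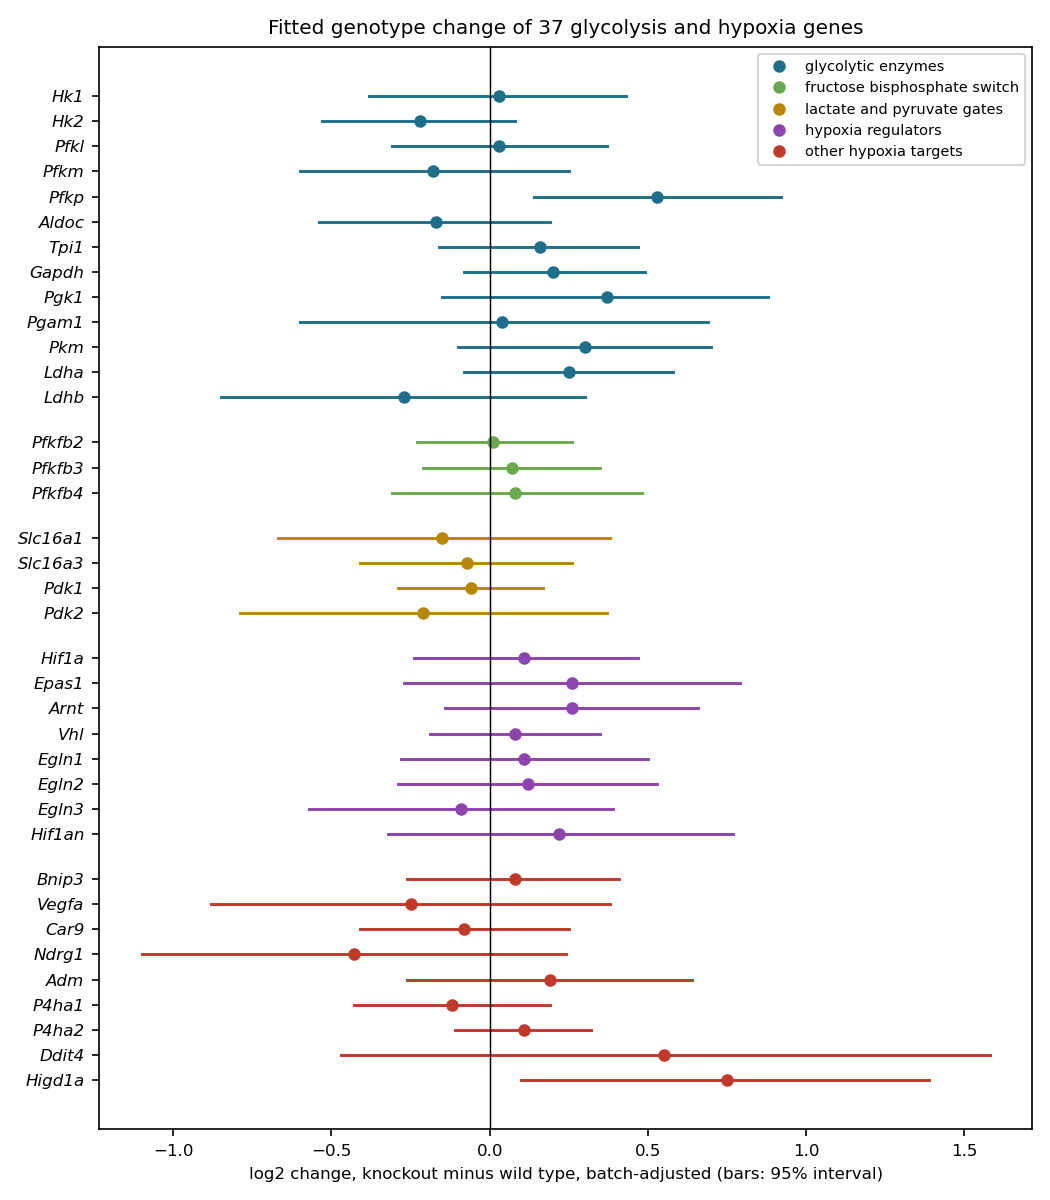
Fitted log2 difference, knockout minus wild type with batch in the model, for the 37 measured genes, coloured by role; points are the fitted values and bars their 95% confidence intervals. The intervals of Pfkp and Higd1a alone leave out 0, and that of Ddit4 is the widest, from -0.47 to 1.58.

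The promoters of some of these genes carry the core letters that the hypoxia-inducible factors read. RefSeq start sites on GRCm38.p6 gave a window of 250 bases upstream for 35 of the 37 measured members; Epas1 and Ndrg1 had no entry. The core ACGTG, searched on both strands, occurred in 21 of those 35 members (60%) and in 24 of their 49 windows (49%), against 5444 of 32851 windows in the table (16.6%) and 20.7% of 15378 measured coding genes. The alternative core GCGTG occurred in 24 of 35 members (68.6%), against 38.4% of those coding genes. The palindrome CACGTG, which holds ACGTG on both strands and is also the site of E-box factors, occurred in 8 of 35 members (22.9%) against 8.04% of those coding genes, and in 16.3% of the members' windows against 6.02% of all windows. By role, ACGTG was present in 6 of 13 glycolytic enzymes, 2 of 3 Pfkfb genes, 3 of 4 lactate and pyruvate gates, 4 of 7 regulators and 6 of 8 other targets. The members were chosen by name, in part as known hypoxia genes, and the shares were not matched for base composition. A match is a run of letters and was not tested as a bound site. The windows of 4 members are shown 5′ to 3′ on the gene's strand, because Ldha and Pgk1 are the textbook hypoxia targets among the enzymes and Pfkp and Higd1a were the members with the lowest p-values. Capitals mark ACGTG or its reverse complement CACGT (with the whole palindrome where present) in the first pair, and GCGTG on the printed strand in the second pair.
Ldha: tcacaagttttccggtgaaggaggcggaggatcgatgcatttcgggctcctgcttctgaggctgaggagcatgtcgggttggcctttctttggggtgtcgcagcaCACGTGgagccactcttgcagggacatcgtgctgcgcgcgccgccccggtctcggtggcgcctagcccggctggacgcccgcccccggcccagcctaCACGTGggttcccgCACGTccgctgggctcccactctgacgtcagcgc
Pgk1: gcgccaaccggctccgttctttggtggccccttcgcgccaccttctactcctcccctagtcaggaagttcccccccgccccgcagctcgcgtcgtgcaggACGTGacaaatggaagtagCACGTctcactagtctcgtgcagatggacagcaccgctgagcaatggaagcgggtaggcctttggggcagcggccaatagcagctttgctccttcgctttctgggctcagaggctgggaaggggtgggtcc
Pfkp: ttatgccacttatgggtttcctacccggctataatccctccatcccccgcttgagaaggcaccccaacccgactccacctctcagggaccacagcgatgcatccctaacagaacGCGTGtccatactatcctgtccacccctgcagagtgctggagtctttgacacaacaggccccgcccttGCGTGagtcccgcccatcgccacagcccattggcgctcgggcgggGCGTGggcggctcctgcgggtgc
Higd1a: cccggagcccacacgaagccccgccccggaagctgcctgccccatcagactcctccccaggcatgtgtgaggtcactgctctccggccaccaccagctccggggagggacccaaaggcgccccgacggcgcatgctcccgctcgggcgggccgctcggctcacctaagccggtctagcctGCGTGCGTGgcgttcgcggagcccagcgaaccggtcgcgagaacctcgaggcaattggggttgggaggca
The Ldha window lies at chr7:46845554-46845803 on the plus strand and belongs to the start with more matches of 2 in the table: ACGTG is read in 3 places, and 2 of them are CACGTG palindromes. Pgk1, at chrX:106186850-106187099 on the plus strand, holds 2 ACGTG cores. Neither Pfkp, at chr13:6648772-6649021 on the minus strand, nor Higd1a, at chr9:121857797-121858046 on the minus strand, holds ACGTG in its window, and they hold 3 and 2 GCGTG cores.

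Glycolysis is committed at the phosphofructokinase step, and its 3 isoforms had fitted values of both signs. Pfkp, the platelet-type phosphofructokinase, ran from 4.40 to 4.87 (median 4.56) in the 6 wild-type arrays and read 5.19, 4.87, 5.30, 5.58 and 4.63 in KO1 to KO5. KO1, KO3 and KO4 lay above every wild-type array, and KO2 and KO5 lay among them. For Pfkp the fitted log2 difference was 0.53 ± 0.18 (SE; 95% interval 0.14 to 0.92), a 1.44-fold higher signal; p was 0.0127 unadjusted, 0.758 adjusted and 0.0238 by exact permutation within batches. It was 0.47 in batch 1 and 0.70 in batch 2, and 0.42 without KO4. The liver-type Pfkl (0.03 ± 0.16) and the muscle-type Pfkm (-0.18 ± 0.19) had intervals that spanned 0. Whether the isoforms differ from each other in their response was not tested.

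Glucose enters the pathway through hexokinase. Hk2, the inducible hexokinase, read 3.61 in 4 of the 6 wild-type arrays, with a highest value of 4.20 in WT4, and 3.50, 3.62, 3.40, 3.31 and 3.61 in KO1 to KO5. The groups overlapped, and 10 of the 11 values lay below their array's median, so no fold is given. For Hk2 the fitted log2 difference was -0.22 ± 0.14 (SE; 95% interval -0.53 to 0.08; adjusted p = 0.84, exact permutation p = 0.113). Hk1, the constitutive form, lay below the array median in 9 arrays and differed by 0.03 ± 0.18. Aldoc, the brain-type aldolase, differed by -0.17 ± 0.17, with -0.35 in batch 1 and 0.32 in batch 2.

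The Pfkfb enzymes make and remove fructose 2,6-bisphosphate, the activator of phosphofructokinase. Most of their signals lay close together across the arrays. Pfkfb2, the form found in heart and kidney, ran from 4.84 to 5.18 (median 4.92) in wild type and read 5.23, 4.85, 4.92, 4.92 and 4.92 in the knockout arrays. For Pfkfb2 the fitted difference was 0.01 ± 0.11 (95% interval -0.23 to 0.26; adjusted p = 0.993, exact permutation p = 0.762). Pfkfb3, the form induced by hypoxia, ran from 3.94 to 4.05 (median 4.01) and read 4.48, 3.79, 4.01, 4.01 and 4.01. KO1 was its highest array and KO2 its lowest. For Pfkfb3 the fitted difference was 0.07 ± 0.13 (95% interval -0.21 to 0.35; adjusted p = 0.941, exact permutation p = 0.571). Pfkfb4 ran from 3.29 to 3.96 (median 3.81) and read 4.33, 3.81, 3.42, 3.85 and 3.81, below the array median in 9 arrays. For Pfkfb4 the fitted difference was 0.08 ± 0.18 (95% interval -0.31 to 0.48; adjusted p = 0.956, exact permutation p = 0.738). Equal values recurred in this family: 7 of the 11 arrays read 4.01 for Pfkfb3 and 6 read 4.92 for Pfkfb2. Over all members 5 of 37 had the same value, to 2 decimals, in 4 or more arrays, against 16.4% of all genes. What sets such equal values was not tested.

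In the lower part of the pathway, where the triose phosphates yield ATP and pyruvate, the fitted differences of 6 measured members, Tpi1, Gapdh, Pgk1, Pgam1, Pkm and Ldha, were above 0 and that of Ldhb was below, and none passed the test. Pkm, the pyruvate kinase of most non-hepatic cells, ran from 5.06 to 5.65 (median 5.47) in wild type and read 5.82, 5.75, 5.42, 6.42 and 5.55 in the knockout. KO1, KO2 and KO4 lay above every wild-type array. For Pkm the fitted log2 difference was 0.30 ± 0.18 (SE; 95% interval -0.10 to 0.70; adjusted p = 0.84, exact permutation p = 0.161), with 0.25 in batch 1, 0.43 in batch 2 and 0.20 without KO4. Pgk1, the first ATP-yielding enzyme, averaged 6.02 ± 0.344 (SD, n = 6) over the wild-type arrays, against 6.53 ± 0.603 (SD, n = 5) over the knockout. Its signal was highest in KO3 (7.01), KO4 (7.10) and KO5 (6.77), and KO1 (5.79) and KO2 (5.99) lay within the wild-type range. For Pgk1 the fitted log2 difference was 0.37 ± 0.23 (95% interval -0.15 to 0.88; adjusted p = 0.841, exact permutation p = 0.196), and it was 0.12 without KO3. Gapdh, often used as a reference gene, differed by 0.20 ± 0.13, Tpi1 by 0.16 ± 0.14 and Pgam1 by 0.04 ± 0.29. The sign for Pgam1 turned to -0.09 without KO4, -0.23 without KO3 and -0.31 with the thick ascending limb mean as a covariate, and a further, dimmer probe set gave 0.32 ± 0.28. Gapdh has many processed copies in the genome, so its signal is uncertain, and its other probe sets gave 0.23 and -0.11.

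Lactate dehydrogenase closes the pathway. Ldha, the subunit that favours making lactate, ran from 4.31 to 4.76 (median 4.55) in wild type and read 4.44, 4.60, 5.08, 5.18 and 5.04 in the knockout. The same 3 arrays that were high for Pgk1, namely KO3, KO4 and KO5, lay above every wild-type array, and KO1 and KO2 lay within them. For Ldha the fitted log2 difference was 0.25 ± 0.15 (SE; 95% interval -0.08 to 0.58; adjusted p = 0.839, exact permutation p = 0.125), with 0.20 in batch 1, 0.37 in batch 2, 0.22 without KO4 and 0.13 without KO3. Ldhb, the subunit that favours using lactate, differed by -0.27 ± 0.26, with its lowest values in WT5 (7.06) and KO2 (6.89).

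**Figure D2:**
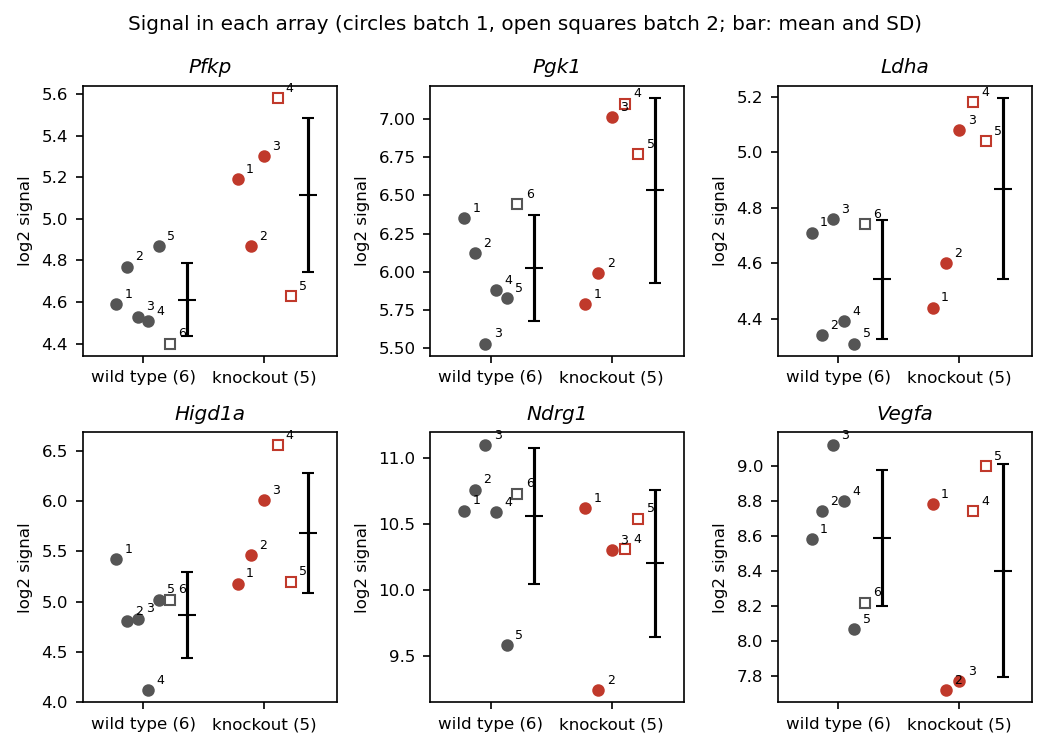
Log2 signal of Pfkp, Pgk1, Ldha, Higd1a, Ndrg1 and Vegfa in each array, with each gene on its own vertical axis, wild type in grey and knockout in red; numbers name the arrays, open squares are batch 2, and black marks give each group's mean ± SD. KO4 is the highest array for Pfkp (5.58), Pgk1 (7.10), Ldha (5.18) and Higd1a (6.56), and WT5 and KO2 are the lowest of their groups for Ndrg1 (9.58 and 9.24) and Vegfa (8.07 and 7.72).

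The 4 genes that pass lactate and pyruvate on had fitted differences from -0.21 to -0.06, and none passed the test. Only 1 of them, Slc16a1, had the same sign in both batches. Genes of like role in the list of further pathway genes had values of both signs: the transporters Slc16a7 (0.50 ± 0.47) and Slc16a4 (0.31 ± 0.34), their chaperone Bsg (0.28 ± 0.20), the carrier subunit Mpc1 (0.19 ± 0.34) and the kinases Pdk3 (0.22 ± 0.25) and Pdk4 (-0.20 ± 0.16). Slc16a1, the monocarboxylate transporter MCT1, ran from 4.95 to 6.30 (median 5.85) in wild type and read 5.99, 5.63, 5.15, 5.81 and 6.18 in the knockout. The ranges overlapped fully. For Slc16a1 the fitted difference was -0.15 ± 0.24 (95% interval -0.67 to 0.38; adjusted p = 0.939, exact permutation p = 0.577), and it was 0.00 without KO3. Slc16a3, the lactate exporter MCT4 of glycolytic cells, ran from 3.90 to 4.66 (median 4.25) and read 4.26, 4.10, 4.18, 4.26 and 4.50. For Slc16a3 the fitted difference was -0.07 ± 0.15 (95% interval -0.41 to 0.26; adjusted p = 0.953, exact permutation p = 0.637). All 5 knockout values again lay inside the wild-type range.

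Pyruvate dehydrogenase kinases inhibit pyruvate dehydrogenase in the mitochondrial matrix and so hold back the conversion of pyruvate to acetyl-CoA, and Pdk1 is a hypoxia-induced member of the family. Pdk1 ran from 3.86 to 4.39 (median 4.08) in wild type and read 4.08, 4.12, 3.87, 4.22 and 4.08 in the knockout. For Pdk1 the fitted difference was -0.06 ± 0.10 (95% interval -0.29 to 0.17; adjusted p = 0.941, exact permutation p = 0.452), and a further probe set, below the array median in all 11 arrays, gave 0.13 ± 0.18. Pdk2 ran from 5.95 to 7.48 (median 6.70) and read 6.84, 5.89, 6.54, 6.81 and 6.56. WT5 and KO2 were its low arrays. For Pdk2 the fitted difference was -0.21 ± 0.26 (95% interval -0.79 to 0.37; adjusted p = 0.915, exact permutation p = 0.452), and it was -0.01 without KO2 and -0.07 without WT3.

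Among the regulators of the hypoxia response, 7 of 8 fitted differences were above 0 and 1 below, with a median of 0.12, a range of -0.09 to 0.26 and no call. Hif1a, the alpha subunit HIF-1α, ran from 4.57 to 5.62 (median 4.99) in wild type and read 5.18, 5.03, 5.29, 5.28 and 5.12 in the knockout. All 5 knockout values lay within the wild-type range, whose highest value was the single batch 2 array. For Hif1a the fitted difference was 0.11 ± 0.16 (95% interval -0.24 to 0.47; adjusted p = 0.927, exact permutation p = 0.494), made of 0.30 in batch 1 and -0.42 in batch 2. A further Hif1a probe set, below the array median in all 11 arrays, gave -0.05 ± 0.16. Epas1, the alpha subunit HIF-2α, ran from 5.74 to 6.79 (median 6.17) and read 6.89, 5.95, 6.46, 7.05 and 6.40. KO1 and KO4 lay above every wild-type array. For Epas1 the fitted difference was 0.26 ± 0.24 (95% interval -0.27 to 0.79; adjusted p = 0.882, exact permutation p = 0.357), and it was 0.12 without KO1.

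Arnt, the partner of both alpha subunits, ran from 4.97 to 5.70 (median 5.68) in wild type and read 6.10, 5.41, 5.90, 6.07 and 5.71 in the knockout, so that 4 of 5 knockout arrays lay above every wild-type array and KO2 did not. For Arnt the fitted log2 difference was 0.26 ± 0.18 (95% interval -0.14 to 0.66; adjusted p = 0.855, exact permutation p = 0.208), with 0.28 in batch 1, 0.19 in batch 2, 0.15 without KO1 and 0.16 without WT5. Vhl, which marks the alpha subunits for destruction, ran from 4.80 to 5.31 (median 4.88) and read 5.06, 5.01, 4.93, 5.20 and 5.48. For Vhl the fitted difference was 0.08 ± 0.12 (95% interval -0.19 to 0.35; adjusted p = 0.934, exact permutation p = 0.488). Hif1an, the asparagine hydroxylase that blocks HIF activity, ran from 2.66 to 3.87 (median 3.24) and read 3.07, 4.21, 3.53, 3.11 and 2.89, below the array median in 10 arrays. For Hif1an the fitted difference was 0.22 ± 0.25 (95% interval -0.32 to 0.77; adjusted p = 0.903, exact permutation p = 0.429), and it was 0.00 without KO2, the array that read 4.21. Among the oxygen sensors, Egln1 and Egln2 differed by 0.11 ± 0.18 and 0.12 ± 0.19. Egln3, itself a hypoxia target, differed by -0.09 ± 0.22 with opposite signs in the batches (0.06 and -0.51), and it lay below the array median in 8 arrays.

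The remaining hypoxia targets spread in both directions, 5 above 0 and 4 below, from -0.43 to 0.75. Higd1a, a small mitochondrial inner-membrane protein induced by hypoxia, ran from 4.12 to 5.42 (median 4.92) in wild type and read 5.18, 5.46, 6.01, 6.56 and 5.20 in the knockout. KO2, KO3 and KO4 lay above every wild-type array, and KO1 and KO5 lay above all of them but WT1. For Higd1a the fitted log2 difference was 0.75 ± 0.29 (SE; 95% interval 0.10 to 1.39), a 1.68-fold higher signal, with an unadjusted p of 0.0267, an adjusted p of 0.769 and an exact permutation p of 0.0655. It was 0.71 in batch 1, 0.86 in batch 2 and 0.60 without KO4. Ddit4, the hypoxia and stress gene that restrains mTORC1, ran from 4.12 to 6.38 (median 5.13) and read 6.04, 5.0, 5.60, 6.31 and 5.73. The widest spread of any member lay here, within the wild-type group. For Ddit4 the fitted difference was 0.55 ± 0.47 (95% interval -0.47 to 1.58; adjusted p = 0.873, exact permutation p = 0.333), with 0.14 in batch 1 and 1.70 in batch 2.

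The secreted and membrane targets had fitted values of both signs. Vegfa, the angiogenic growth factor, ran from 8.07 to 9.12 (median 8.66) in wild type and read 8.78, 7.72, 7.77, 8.74 and 9.0 in the knockout. KO2 and KO3 lay below every wild-type array. For Vegfa the fitted difference was -0.25 ± 0.29 (95% interval -0.88 to 0.38; adjusted p = 0.905, exact permutation p = 0.44), with -0.57 in batch 1 and 0.65 in batch 2, so its sign depended on the batch, and it was -0.06 without KO2 and -0.07 without KO3. Car9, the hypoxia-induced carbonic anhydrase, differed by -0.08 ± 0.15 on the probe set read here and by -0.47 ± 0.20 on a further one (unadjusted p = 0.0372, adjusted p = 0.786, exact permutation p = 0.0595). Bnip3, a mitophagy receptor, differed by 0.08 ± 0.15, and Adm, the vasodilator peptide adrenomedullin, by 0.19 ± 0.20. Adm lay below the array median in 9 arrays, and its difference was 0.00 in batch 1 and 0.73 in batch 2.

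Ndrg1, a stress-responsive gene induced by low oxygen, ran from 9.58 to 11.10 (median 10.66) in wild type and read 10.62, 9.24, 10.30, 10.31 and 10.54 in the knockout. For Ndrg1 the fitted difference was -0.43 ± 0.30 (95% interval -1.10 to 0.24; adjusted p = 0.856, exact permutation p = 0.256), and a further probe set gave -0.60 ± 0.44. Without KO2 it was -0.14, and without both WT5 and KO2 it was -0.30. WT5 and KO2 were far below the rest of their groups. P4ha2, a collagen prolyl hydroxylase, ran from 4.49 to 4.73 (median 4.69) and read 4.73, 4.73, 4.75, 4.91 and 4.71. For P4ha2 the fitted difference was 0.11 ± 0.10 (95% interval -0.11 to 0.32; adjusted p = 0.882, exact permutation p = 0.0952), and its relative P4ha1 differed by -0.12 ± 0.14.

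Several of these genes shared a profile over the arrays. KO4 was the highest of all 11 arrays for 15 of the 37 members (40.5%), against 13.0% of all genes, and for 8 of the 13 glycolytic enzymes (61.5%). The mean of the 13 glycolytic enzymes was 5.97 in KO4 and lay between 5.46 and 5.67 in the other 10 arrays. KO4 was also the array with the raised thick ascending limb and collecting duct signal given above: Slc12a1, the salt transporter of the thick limb, read 10.05 there against at most 7.54 elsewhere, and Aqp2, the collecting duct water channel, 8.48 against at most 6.08. The median difference of the glycolytic enzymes was 0.04 over all arrays, -0.03 without KO4, when 6 of 13 lay above 0, and -0.06 with the thick ascending limb mean as a covariate. For Pfkp the same covariate left 0.31 and for Higd1a 0.39. Of the 11 thick limb markers other than Umod, 10 had a fitted difference above 0 (median 0.33; 0.18 without KO4). The part of these markers in the glycolytic values was not tested beyond these settings.

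The regulators kept a median above 0 without KO4, at 0.12 with 8 of 8 above 0; with the thick ascending limb covariate it was 0.06, and the value for Epas1 was 0.07 in place of 0.26. Their mean ran from 5.02 to 5.46 in wild type and from 5.28 to 5.50 in the knockout. Within batch 1 the 3 knockout arrays (5.28, 5.31 and 5.46) lay above the 5 wild-type arrays (at most 5.25), and in batch 2 the wild-type array (5.46) lay between both knockout arrays (5.50 and 5.36). The batch medians of the regulators were 0.20 and 0.01, and only 4 of the 8 had the same sign in both batches. The mean of the other targets ran from 5.79 to 6.28 in wild type and from 5.72 to 6.53 in the knockout, where KO2 lay below the wild-type range, KO4 and KO5 above it, and KO1 and KO3 inside it. WT5 and KO2 had the lowest S1 and S2 marker means in their groups. They were both the lowest of their groups for 5 of the 37 members (Ldhb, Pdk2, Arnt, Vegfa and Ndrg1), against 5.15% of all genes. Without both arrays the medians of the enzymes, the regulators and the other targets were 0.08, 0.10 and 0.09. The part of segment mixture in these profiles was not tested.

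**Figure D3:**
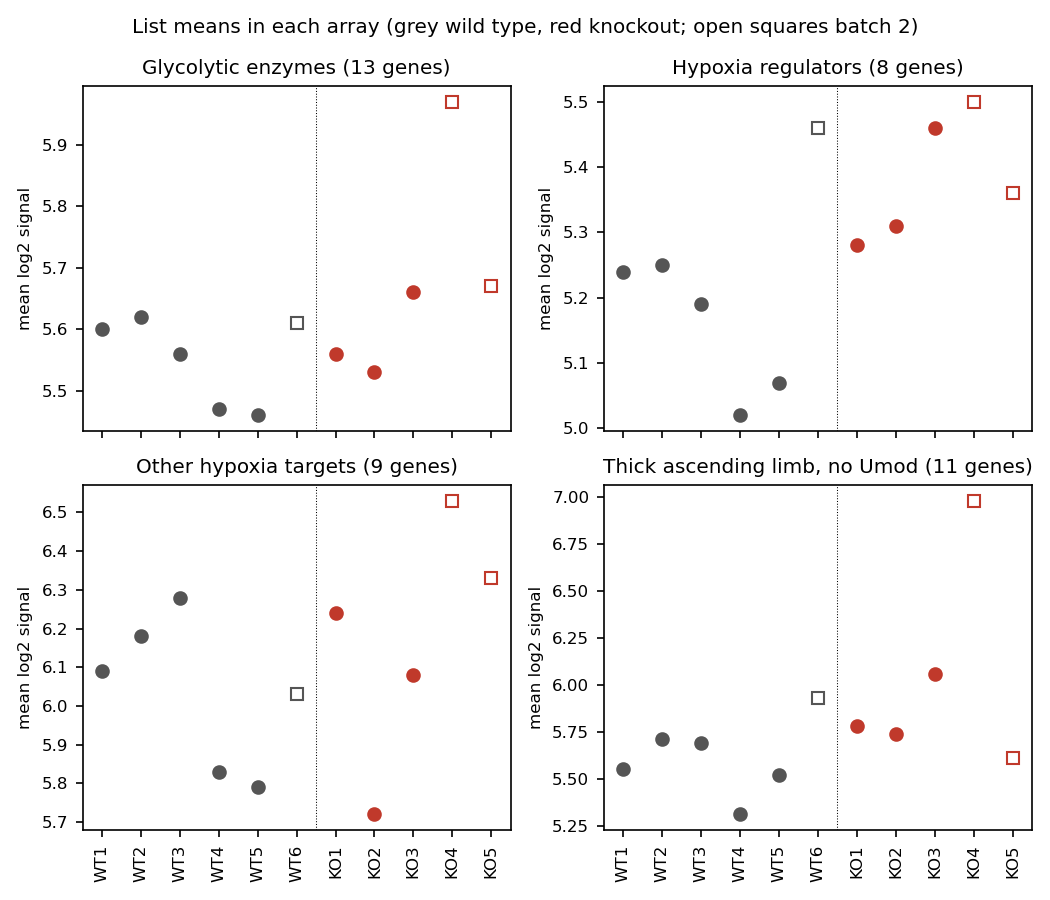
Mean log2 signal per array of the 13 glycolytic enzymes, 8 hypoxia regulators, 9 other hypoxia targets and 11 thick ascending limb markers without Umod, wild type in grey, knockout in red, open squares for batch 2; the vertical axes differ between panels. KO4 is the highest array in all 4 panels, at 5.97, 5.50, 6.53 and 6.98.

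The wider pathways gave no adjusted call either. Of 36 further genes of glycolysis and glucose handling, 32 were measured, with 24 fitted differences above 0, 8 below and a median of 0.13. That median was 0.13 in batch 1 and -0.02 in batch 2, 0.05 without KO3 and 0.04 with the thick ascending limb covariate, and 34.4% of these genes were highest in KO4. Of the 32, 2 had an unadjusted p under 0.05 (6.25% against 5.64% of all genes), both higher. Ldhd, the mitochondrial D-lactate dehydrogenase, averaged 9.15 ± 0.152 (SD, n = 6) over the wild-type arrays, against 9.56 ± 0.166 (SD, n = 5) over the knockout. For Ldhd the fitted difference was 0.39 ± 0.12 (SE; unadjusted p = 0.00796, adjusted p = 0.708, exact permutation p = 0.0119), with 0.36 in batch 1 and 0.47 in batch 2. Eno2, the neuronal-type enolase, had means of 4.41 ± 0.23 and 4.76 ± 0.117 and differed by 0.36 ± 0.13 (adjusted p = 0.761, exact permutation p = 0.0179). Next in order of p were Dld, the dehydrogenase shared by the pyruvate and other complexes (0.42 ± 0.26), and Ldhc, the testis-type subunit (-0.20 ± 0.14). Ldhc lay below the array median in all 11 arrays. Of 60 further genes of the hypoxia pathway, 54 were measured, with 26 above 0, 28 below and a median of 0.00, and 1 had an unadjusted p under 0.05 (1.85%). That gene was Usp20, a deubiquitinase that acts on HIF-1α, with means of 5.86 ± 0.355 and 6.34 ± 0.364 and a difference of 0.54 ± 0.21 (adjusted p = 0.774, exact permutation p = 0.0476), 0.69 in batch 1 and 0.12 in batch 2. The demethylase Kdm3a (-0.23 ± 0.10), the receptor Egfr (0.22 ± 0.10) and the haem oxygenase Hmox1 (0.35 ± 0.17) followed in order of limma p. Their adjusted p-values were 0.813, 0.813 and 0.823. By exact permutation p was 0.0179 for Kdm3a and 0.0298 for Egfr, both below that of Usp20, and 0.0952 for Hmox1.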

How the data were processed

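Signals were measured on 11 Affymetrix arrays. The deposited values are log2 signals per probe set; per the submitters' processing notes Partek 6.6 and RMA were used, and the genome build, filters and any batch correction by the authors are not given in the sources used here. All 41345 probe sets were fitted with genotype and batch as terms (limma 3.58.1 in R 4.3.3, Benjamini-Hochberg, threshold 0.05; 8 residual degrees of freedom). For a gene, the probe set of highest mean among those with 1 symbol was read (23521 probe sets had 1 symbol, 1814 several and 16010 none), which left 22180 genes. Exact two-sided permutation tests of the group difference shuffled genotypes within batches (168 arrangements, smallest p 0.00595). Intervals are 95%. The members and all gene lists were chosen with earlier results of these data known. The 4 members of each role group with the smallest p, and Hif1a, Epas1, Vhl, Ldha, Pkm and Vegfa, are called given in full. For them the text gives each knockout value and a summary of the wild-type arrays. The fitted difference, its interval, the adjusted p and the exact permutation p follow. Pgk1 was described at length after its values were seen. From each list of further pathway genes, up to 4 with the smallest p were named. Marker lists for the S3 segment, S1 and S2 segments, thick ascending limb, thin limb, collecting duct, endothelium, fibroblasts, leukocytes and red cells were read the same way. Other scalings, probe rules, models and left-out arrays were tried, and the fit was tested on simulated data. Array number limits the precision.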

Additional observations from a re-analysis of the deposited data

Results flagged for a closer look

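In 80 groups of arrays, 1 array stood far from the others 11 times by Dixon's test, and chance gives about 1 in 20. Of these flags 3 fell on Pfkfb2 and Pfkfb3, whose arrays share equal values: Pfkfb2 read 5.18 in WT6 and 5.23 in KO1, each with 4.92 as the nearest value, and Pfkfb3 read 3.94 in WT6, nearest 4.01. The arrays with the lowest S1 and S2 marker means, WT5 and KO2, gave 3 flags. Ndrg1 read 9.58 in WT5 and 9.24 in KO2, with 10.59 and 10.30 nearest, and Arnt read 4.97 in WT5, nearest 5.58. WT4 was high for Hk2 at 4.20 and low for Pfkfb4 at 3.29, against 3.76 and 3.80. WT6 was high for Egln3 at 4.42 (nearest 3.85), WT3 low for Car9 at 5.22 (nearest 5.64) and KO4 high for P4ha2 at 4.91 (nearest 4.75). Equal values also recurred for Hk2 (in 5 arrays) and Car9 (in 4 arrays). Where values are equal, the rate of 1 in 20 need not hold.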

How the results depend on the processing

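No member passed the adjusted threshold under any setting or with any array left out. Among all probe sets there were 11 calls without KO5, 3 without WT6, 3 in batch 1 alone and 2 without KO3. There was 1 call each without WT1, with the mean of probe sets and without WT5 and KO2. The count of members at an unadjusted p under 0.05 was 2 over all arrays and 2 in batch 1 alone (Pfkp and Higd1a both times). It was 0 with the replicate block, 1 with the thick ascending limb covariate (Pfkp) and 3 with the mean of probe sets (Car9 joined). As single arrays were left out it ranged from 0 (without WT6) to 4 (without KO1: Pfkp, Pgk1, Ldha and Higd1a). Without WT6, batch 2 holds knockouts alone. The fitted differences are then those of batch 1, and KO4 and KO5 enter only the estimate of spread. The count was 3 without WT5, 3 without KO5 and 1 without KO3. Without both WT5 and KO2 the 2 genes were Pfkp and Arnt. The glycolytic median of 0.04 was -0.06 with that covariate and ranged from -0.03 (without KO4) to 0.14 with arrays left out; it was 0.18 with bright probe sets alone, 0.12 with no batch term and 0.13 with batch as a random block. The median of the other targets, 0.08, was -0.04 with the replicate block and ranged from -0.01 (without KO1) to 0.11 with arrays left out; it was 0.00 with bright probe sets alone and 0.13 both with no batch term and with batch as a random block. That of the regulators stayed between 0.06 and 0.20. Among the 21 members given in full, signs reversed for Epas1 (-0.04) and Ddit4 (-0.53) with the replicate block, for Slc16a3 with the replicate block (0.04), the covariate (0.02) and WT5 and KO2 both left out (0.01), a setting chosen after seeing the data, and for Pdk1 with the mean of its probe sets (0.03). Leaving out arrays gave -0.09 to 0.11 for Pfkfb2, -0.06 to 0.18 for Pfkfb3 and -0.09 to 0.22 for Pfkfb4. With the replicate block the genotype difference rests on KO1 to KO3 against WT1 to WT3 alone. WT6 has no partner there, and arrays 4 and 5 of the genotypes lie in different batches. The cause of the other shifts was not tested. Of the 37 members, 18 kept their sign throughout; among those not given in full, Hk1, Pfkl, Pgam1, Egln1, Egln2, Egln3, Bnip3, Car9, Adm and P4ha1 did not. Correlations of same-numbered deviations ran from -0.125 to 0.0957 over 5 pairs, which gave no sign of pairing by replicate number. They do not settle the question, because WT4 and WT5 lie in batch 1 and KO4 and KO5 in batch 2. With 6 and 5 arrays, the 95% intervals of all measured members but Pfkp and Higd1a include differences of either sign.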
